A study of Rattus norvegicus with 8 samples.

Results

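The genes described here are 33 genes of fatty acid oxidation and ketone body metabolism, chosen by name for their known function. Earlier results of these data were known when they were chosen. Each was read from the locus whose gene name is exactly that symbol, and from the locus with most fragments where there were several. Of the 33 genes 30 were matched to a locus, and 28 of these had enough fragments to be tested, out of 52753 loci in the deposited table and 16941 tested loci. Decr2 and Acaa1a were not matched, and Acot2 was named only in a locus shared with Acot3 and Acot5, so no expression values are given for these 3. Acox2 and Echs1 were matched to loci with 13 and 5 fragments over all 8 libraries and were too low to test.

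Stranded mRNA libraries were sequenced from the whole length of the small intestine of rats with cystic fibrosis (CF, 4 libraries) and of wild type rats (WT, 4 libraries). All were Sprague Dawley rats at postnatal day 21. CF is the disease caused by loss of the anion channel CFTR, and the labels give neither the CFTR allele nor sex, litter or diet. Whether a library stands for 1 animal is not stated in the labels, so the tests measure the spread between these libraries. The libraries are numbered 0 to 3 within each group in the deposited table, and the numbers only name them. The CF libraries held 18621671 to 20890031 fragments and the WT libraries 15255364 to 20812425, with the lowest totals in WT libraries 0 and 3. Values per library are counts-per-million of the library's fragments (CPM) after scaling between libraries. Markers of absorptive enterocytes were abundant in every library, with a sum over 9 matched genes of 8660 to 27600 CPM in CF libraries and 14300 to 25600 CPM in WT. CF library 0 stood apart with the lowest sum, 8660 CPM, against 18600 CPM or more in the other CF libraries. Transcripts of Cftr, the gene mutated in the disease, ranged from 92.0 to 107 CPM in CF libraries and from 74.0 to 107 CPM in WT libraries (log2 fold change 0.04, SE 0.12). This level did not separate the groups, so it gives no check of the labels, which were taken as given.

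Fatty acids enter mitochondria as carnitine esters, made by CPT1A at the outer membrane, carried by the SLC25A20 exchanger and turned back into acyl-CoA by CPT2. Inside, a cycle of dehydrogenation, hydration, a second dehydrogenation and thiolysis shortens the chain, and electrons from the first step pass through the electron transfer flavoprotein to the respiratory chain. Peroxisomes start the shortening of very long and branched chains. PPARA, a nuclear receptor for fatty acids, and its coactivator PPARGC1A raise transcription of many of these genes. The intestine of suckling rats takes up milk fat, expresses much of this pathway and, unlike the adult intestine, makes ketone bodies.

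Transcripts of most enzymes of the pathway were abundant, and none of the 28 tested genes differed between CF and WT past the test. Mean levels were lower in CF for 23 of the 28, where 50.8% of all tested loci had a log2 fold change below 0. The median log2 fold change of the 28 genes was −0.22, against 0.00 over all tested loci. No gene passed an adjusted p of 0.05 in edgeR (quasi-likelihood test, Benjamini-Hochberg over all loci), where 0.165% of loci did and 0.0295% did with lower levels in CF. The smallest adjusted p was 0.271. At an unadjusted p of 0.05, 1 gene passed, Ppargc1a, lower in CF, where 7.21% of all loci passed in that direction. The CF and WT libraries overlapped in all 28 genes, where 8.78% of all loci had groups that did not overlap. DESeq2 and limma-voom called none of the 28 genes either.

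WT libraries 0 and 3 were often the highest. They were the highest WT libraries for 25 of the 28 genes, an order found in 16.6% of all tested loci. They were the highest of all 8 libraries for 15 genes, an order found in 3.90% of all tested loci. With 1 library left out the median log2 fold change stayed below 0 each time, between −0.33 without WT library 2 and −0.12 without WT library 3. Without WT library 3, 18 of 28 genes had lower means in CF, without WT library 0 the median was −0.18 with 21 of 28, and without CF library 2 it was −0.17 with 23 of 28. With both WT libraries 0 and 3 left out the median was 0.08 and 9 of 28 genes had lower means in CF. That pair was left out because it had been seen to be the highest, so the upward direction of this move was set by the choice. In bulk tissue, fewer cells of a type and less RNA per cell cannot be told apart.

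**Figure D1:**
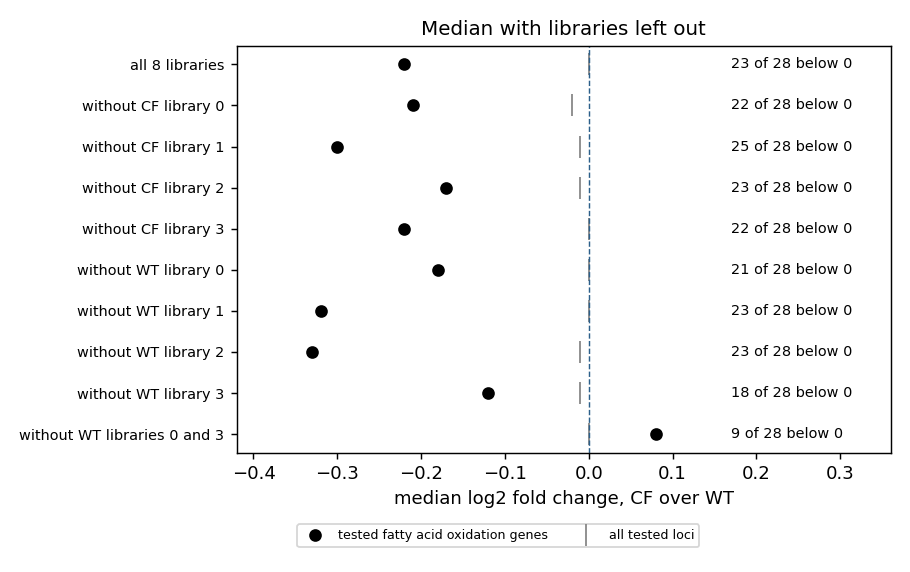
Median log2 fold change, CF over WT, of the 28 tested fatty acid oxidation genes (black points) and of all tested loci (grey marks), with all 8 libraries and with libraries left out. The point lies at −0.22 with all libraries, at −0.12 without WT library 3 and at 0.08 without WT libraries 0 and 3, a pair chosen because it was high, and the text at the right gives the number of genes with a log2 fold change below 0.

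Markers of cell types and of mitochondrial mass were read in the same libraries. A score was formed for each library by subtracting from every gene's log2 CPM that gene's mean over the 8 libraries and averaging over the genes. The score of the 28 genes was −0.10, 0.07, −0.33 and −0.13 in CF libraries 0 to 3 and 0.35, −0.23, −0.16 and 0.52 in WT libraries 0 to 3. The score of the enterocyte markers was −1.11, 0.60, 0.10 and 0.13 in CF and 0.17, −0.11, −0.28 and 0.49 in WT. WT library 3 was thus high on both, while CF library 0, the lowest by far on enterocyte markers, was near the middle for the oxidation genes. The score of 9 genes of mitochondrial mass, such as citrate synthase and respiratory chain subunits, was −0.21 in WT library 0 and 0.20 in WT library 3. It ranged from −0.10 to 0.22 over the CF libraries, so the pair of high WT libraries differed from each other on it. Without CF library 0 the median log2 fold change of the 28 genes was −0.21, with 22 of 28 lower in CF. The part of enterocyte content or of sequencing depth in the lower CF means was not tested.

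Some markers of other cell types had groups that did not overlap, as in 8.78% of all loci, and none passed the adjusted test. The sum of 4 matched smooth muscle markers was 4660 to 6220 CPM in CF libraries and 2810 to 4200 CPM in WT, without overlap. The score of these markers was lowest, at −0.64, in WT library 3. Only Des (log2 fold change 0.97) and Cnn1 (0.88) were higher in CF without overlap. Myh11 (0.14) and Acta2 (0.12) differed little, and their CF and WT libraries overlapped. The sum of 3 matched endothelial markers was 52.5 to 81.6 CPM in CF libraries and 83.8 to 110 CPM in WT, again without overlap. All 3 were lower in CF at an unadjusted p of 0.05 in edgeR, where 7.21% of all loci were. The sum of 4 neutrophil markers was 3.51 to 35.3 CPM in CF libraries and 0.819 to 2.68 CPM in WT, highest in CF library 0. Both neutrophil markers that could be tested, S100a9 and Csf3r, were higher in CF without overlap of the groups, as were 4.86% of all loci. Their log2 fold changes were 4.06 with an SE of 1.12 and 2.52 with an SE of 0.56. The goblet cell marker Spink4 was at 293 to 489 CPM in CF libraries and 31.2 to 121 CPM in WT (log2 fold change 2.17, SE 0.38), while the sum of 4 goblet cell markers overlapped, at 3920 to 6790 CPM in CF libraries and 3080 to 5910 CPM in WT. The sum of 5 pancreatic acinar markers overlapped between the groups but was uneven between libraries. It was 89.8 CPM in CF library 2 and 40.2 CPM in WT library 1, and 14.7 to 18.4 CPM in the remaining libraries. These were also the libraries with the lowest score of the 28 genes in their groups, and the part of acinar cells in this was not tested. The sums for crypt cells and macrophages overlapped too, but some single markers did not. Of the crypt markers Lgr5 (log2 fold change −0.79, SE 0.18) and Ascl2 (−0.35, SE 0.17) were lower in CF without overlap. Olfm4 was higher without overlap (0.29, SE 0.12), and Mki67 and Top2a overlapped. The macrophage marker Csf1r was lower in CF without overlap (−0.56, SE 0.14), and the other macrophage markers overlapped. The part of these cell types in the lower CF means of the oxidation genes was not tested.

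The markers of white adipocytes, the cells of attached fat, were low beside those of enterocytes. The sum over 8 matched markers was 104 to 151 CPM in CF libraries and 114 to 161 CPM in WT, most of it from Cidec, Fabp4 and Lipe. The adipocyte hormone gene Adipoq was at 1.25 to 8.15 CPM in CF libraries and 3.69 to 6.33 CPM in WT, and another hormone gene, Lep, at 0 to 5 fragments per library. Among the tested white adipocyte markers, Plin1 was lower in CF without overlap of the groups (log2 fold change −0.90, SE 0.36). Cfd was higher without overlap (0.73, SE 0.21), and the others overlapped. Of all loci 8.78% had groups that did not overlap, and neither gene passed the adjusted test. The brown fat gene Ucp1 was listed at 0 fragments in all 8 libraries. The hepatocyte gene Alb had 0 to 3 fragments per library, and the sum of 5 hepatocyte markers was 4.29 to 5.05 CPM in CF libraries and 4.42 to 22.5 CPM in WT, highest in WT library 0. The part of such cells in the values was not tested.

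Levels of different genes were compared as FPKM, the authors' value per transcript length. The highest means over the 8 libraries were those of Etfa at 139 FPKM, Acadl at 131, Acaa2 at 127, Hadha at 108 and Eci2 at 104. Another 18 genes lay between 10 and 100 FPKM, and Ppargc1a, Crot, Angptl4 and Ppara lay between 6.73 and 7.83 FPKM. For 28 of the 29 neighbouring pairs in this order, the exception being Ppara and Acot1, the values of the 8 libraries overlapped. Etfa was at 142 ± 33.1 FPKM in CF and 136 ± 25.9 FPKM in WT (SD, n = 4 each), and Acadl, the next gene, at 128 ± 28.2 FPKM in CF and 134 ± 36.9 FPKM in WT. Acot1 was at 0.325 FPKM, and the loci named Acox2 and Echs1 were at 0.0278 and 0.0210 FPKM. Whether these named loci hold all fragments of Acox2 and Echs1 was not tested.

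**Figure D2:**
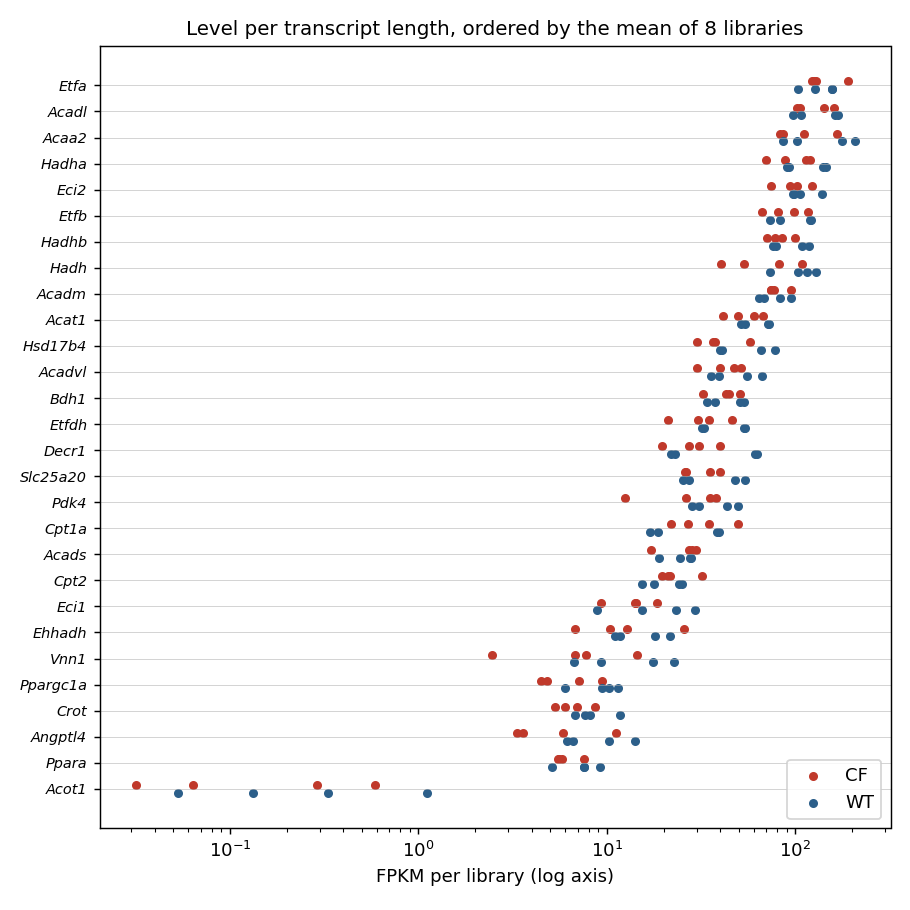
FPKM per library on a log axis for the 28 tested genes, ordered by their mean over 8 libraries, with CF libraries as red points above WT libraries as blue points in each row. The red and blue points overlap in each row, from Etfa with a mean of 139 FPKM to Acot1 with 0.325 FPKM.

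The 28 genes varied unequally between libraries. The highest library exceeded the lowest 1.40-fold for Acadm, 1.88-fold at the median of the 28 genes, 7.38-fold for Vnn1 and 33.2-fold for Acot1, which had 36 fragments in CF and 45 in WT. The SD relative to the mean was larger in WT than in CF for 21 of 28 genes, and for 42.3% of all tested loci.

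**Figure D3:**
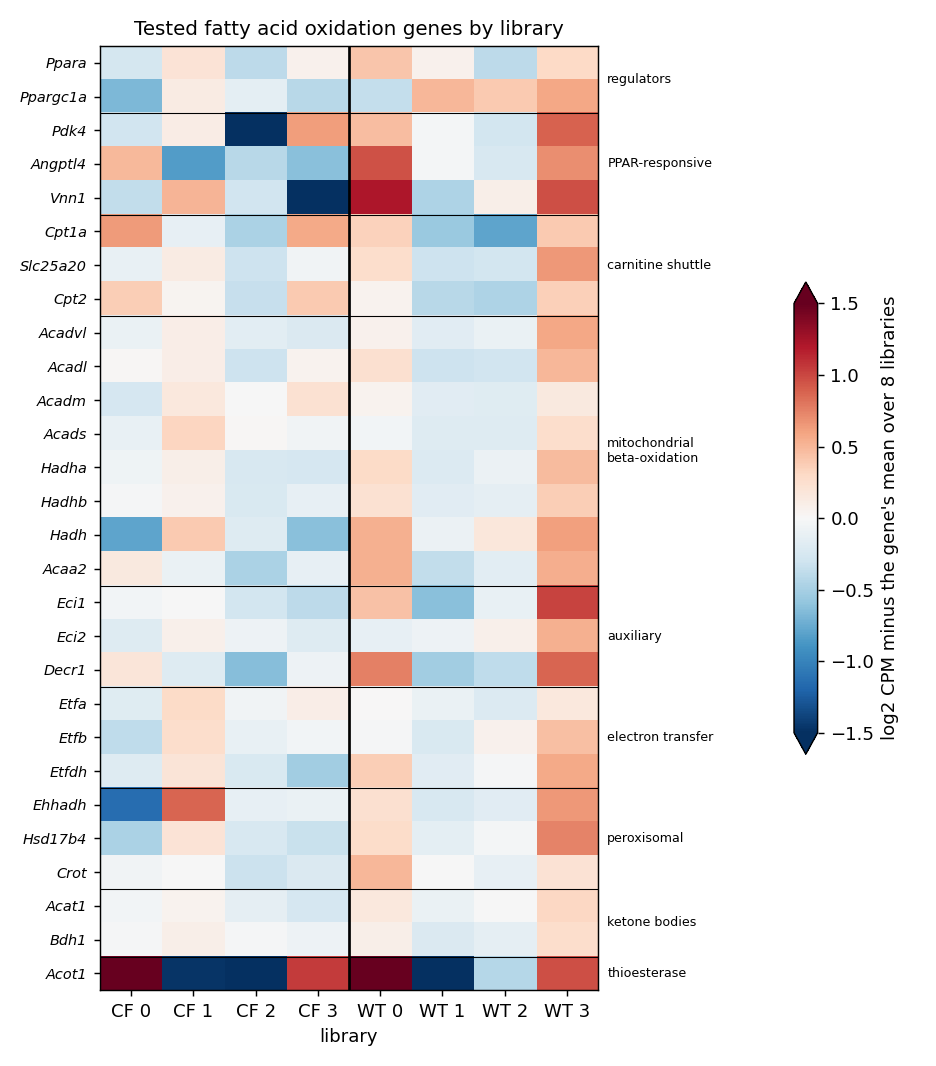
Log2 CPM of each tested gene minus its mean over the 8 libraries, with CF libraries left of the line and WT libraries right of it, and genes in rows by role (colours end at 1.5 in both directions). WT library 3 is the highest of all 8 libraries for 17 of 28 genes, and for Cpt1a, Cpt2, Decr1 and Acot1 libraries 0 and 3 are the highest within each group.

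Both regulators had lower means in CF without passing the test. Ppargc1a (chr14:63095719-63190928, Rnor_6.0), the coactivator of mitochondrial biogenesis and oxidation genes, was at 27.5, 47.8, 39.7 and 33.1 CPM in CF libraries 0 to 3 and at 34.5, 62.3, 57.9 and 65.7 CPM in WT libraries 0 to 3. All CF libraries lay below WT libraries 1, 2 and 3, while WT library 0 lay within the CF range. Its mean was 37.0 ± 8.76 CPM in CF libraries and 55.1 ± 14.1 CPM in WT libraries, and its log2 fold change was −0.57 (SE 0.22, adjusted p = 0.271, edgeR). With other processing or 1 library left out it was −0.74 to −0.45, with adjusted p-values of at least 0.147. Ppargc1a, Eci2 and Etfb were the 3 genes for which WT libraries 0 and 3 were not the highest WT libraries. Ppara (chr7:126618938-126687297), the receptor, was at 46.3 ± 8.83 CPM in CF libraries and 53.4 ± 12.3 CPM in WT libraries, for a log2 fold change of −0.20 (SE 0.19).

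The promoter window of Ppargc1a is shown because this gene had the smallest p of the 28 and because its promoter is known for a cyclic AMP response element, through which CREB raises its transcription. The window runs from 250 bases before to 50 bases after the start (RefSeq, GRCr8, chr14:63634058-63634357, plus strand), and capitals mark TGACGTCA, the palindromic element, 181 to 174 bases before the start.
Ppargc1a promoter: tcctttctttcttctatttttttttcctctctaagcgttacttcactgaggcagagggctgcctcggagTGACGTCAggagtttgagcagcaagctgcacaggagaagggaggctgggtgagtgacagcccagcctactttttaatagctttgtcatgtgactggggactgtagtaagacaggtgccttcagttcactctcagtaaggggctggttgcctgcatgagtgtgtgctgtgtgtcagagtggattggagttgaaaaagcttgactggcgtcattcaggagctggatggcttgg

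Of the 33 genes 29 were matched to such a window by symbol, including Decr2, Acaa1a and Acot2. Acadl, Decr1, Acaa2 and Vnn1 were not searched. Among the 29 genes, TGACGTCA was found in Ppargc1a and Acadm, and it is present in 1.83% of all 33469 windows. Binding sites of PPARA are direct repeats with 1 base between the copies. A repeat of AGGNCA with any 1 base (N) between the copies was searched on both strands and found in none of the 29 windows, and 0.415% of all windows hold it. The same repeat without its outermost base at either end, which matches every full repeat too, was also in none of the 29 windows and is in 2.16% of all windows. The single site AAGGTCA, which can overlap a repeat, was found in 1 of the 29 windows, that of Hadhb, and in 4.61% of all windows. These spellings were chosen after the values were seen, and windows of this length leave out more distant sites.

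The PPARA-responsive genes outside the oxidation enzymes included those with the widest ranges after Acot1. Vnn1 (chr1:22614633-22625214), a pantetheinase of the enterocyte surface, was at 16.8, 30.8, 17.8 and 6.83 CPM in CF libraries and 50.4, 15.7, 23.0 and 42.3 CPM in WT. WT libraries 0 and 3 lay above all CF libraries, and WT libraries 1 and 2 lay within the CF range. At −0.86 (SE 0.50, 95% interval −2.02 to 0.30, adjusted p = 0.462, edgeR) its log2 fold change was the largest in size among the 28. Pdk4 (chr4:30546663-30556814), the kinase that shuts off pyruvate dehydrogenase and so spares glucose, was at 39.0, 51.3, 16.8 and 73.4 CPM in CF libraries and 65.6, 46.4, 39.1 and 87.6 CPM in WT. CF libraries 0 and 2 lay below every WT library, CF library 0 only just, and CF libraries 1 and 3 lay within the WT range (log2 fold change −0.40, SE 0.43). Angptl4, a secreted inhibitor of lipoprotein lipase, was at 12.9 ± 5.88 CPM in CF libraries and 20.6 ± 7.91 CPM in WT libraries (log2 fold change −0.67, SE 0.35).

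The carnitine shuttle held the genes with the highest fold changes. Cpt1a (chr1:218567676-218629679), the rate-controlling enzyme of mitochondrial entry, was at 243, 143, 112 and 232 CPM in CF libraries and 198, 106, 90.5 and 205 CPM in WT. In both groups libraries 0 and 3 were high and libraries 1 and 2 low, and the groups overlapped. The log2 fold change was 0.29 (SE 0.34, adjusted p = 0.731, edgeR). Cpt2, which reverses the carnitine transfer, followed the same order at 67.5, 53.8, 41.3 and 68.9 CPM in CF libraries and 54.4, 39.3, 37.8 and 66.8 CPM in WT libraries (log2 fold change 0.23, SE 0.22). Slc25a20 (chr8:117455261-117476734), the exchanger, was at 62.8, 73.6, 54.6 and 65.2 CPM in CF libraries and 81.4, 54.7, 56.0 and 106 CPM in WT. Its 2 highest libraries were WT libraries 3 and 0, and its log2 fold change was −0.22 (SE 0.21), or 0.00 without WT library 3.

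The order of libraries seen for Cpt1a and Cpt2, with libraries 0 and 3 highest in each group, was shared by Decr1 and Acot1, so by 4 of 28 genes, and by 2.74% of all tested loci. Libraries with the same number share nothing that the labels state.

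**Figure D4:**
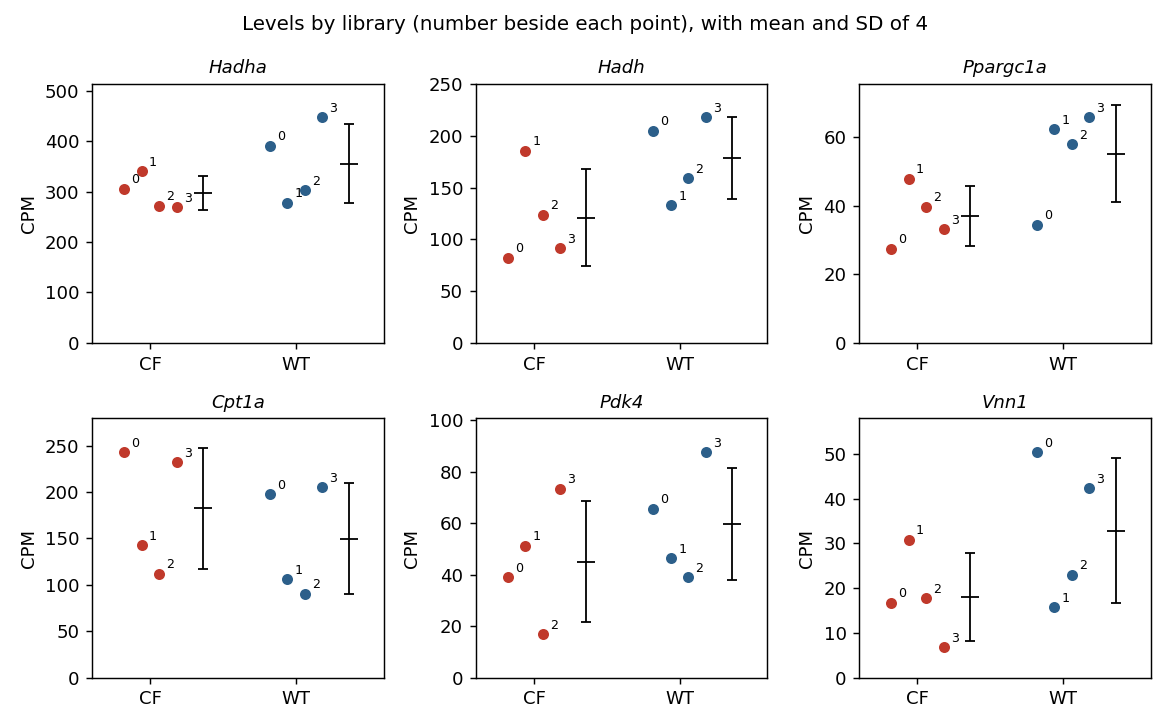
CPM per library for 6 genes, with CF left of WT, the library number beside each point, and the mean and SD of 4 libraries at the right of each group. In Cpt1a libraries 0 and 3 lie above libraries 1 and 2 in both groups, in Hadha, Hadh and Vnn1 WT libraries 0 and 3 lie above every CF library, and in Ppargc1a the WT library within the CF range is library 0.

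Of the 8 tested enzymes of mitochondrial beta-oxidation 6 had lower and 2 higher means in CF, and none passed the test. Acadl (chr9:73833387-73871888), the long-chain acyl-CoA dehydrogenase, had the highest FPKM of them over the 8 libraries, although Acaa2 was higher in WT at 142 ± 57.5 FPKM, and Acadl was at 192, 203, 152 and 196 CPM in CF libraries and 223, 153, 155 and 268 CPM in WT. WT libraries 1 and 2 lay with the lowest CF library and WT libraries 0 and 3 above all CF libraries (log2 fold change −0.11, SE 0.19, and 0.07 without WT library 3). Hadh (chr2:236353444-236395067), the dehydrogenase of the third step for shorter chains, had the largest difference of the 8. It was at 82.2, 186, 124 and 91.5 CPM in CF libraries and 205, 133, 159 and 218 CPM in WT, so that CF libraries 0, 2 and 3 lay below every WT library and CF library 1 within the WT range. The log2 fold change stood at −0.56 (SE 0.26, 95% interval −1.16 to 0.03, adjusted p = 0.348, edgeR). With other processing or 1 library left out it was −0.85 to −0.42, with adjusted p-values of at least 0.136. The dehydrogenases for other chain lengths differed less, with log2 fold changes of −0.21 for Acadvl (very long), 0.08 for Acadm (medium) and 0.09 for Acads (short). Acaa2, the thiolase of the last step, was at 214 ± 36.2 CPM in CF libraries and 267 ± 83.9 CPM in WT libraries (log2 fold change −0.32, SE 0.22), in a locus whose span of chr18:70426872-70779544 can include neighbouring genes.

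Hadha and Hadhb encode the alpha and beta subunits of the trifunctional protein, which performs the last 3 steps on long chains. They are neighbours that point away from each other, with 76 bases between their spans in Rnor_6.0 (chr6:27589656-27629175 for Hadha and chr6:27555310-27589579 for Hadhb). Hadha was at 306, 341, 272 and 269 CPM in CF libraries and 391, 278, 303 and 447 CPM in WT. Hadhb was at 149, 158, 129 and 138 CPM in CF libraries and 177, 134, 137 and 195 CPM in WT. For both genes WT libraries 0 and 3 lay above all CF libraries, and WT libraries 1 and 2 lay within the CF range. Their ratio varied less than either gene, from 1.95 to 2.16 in CF and from 2.08 to 2.29 in WT, while Hadha alone varied 1.66-fold and Hadhb 1.52-fold over the libraries. Their log2 fold changes were −0.26 (SE 0.16) and −0.16 (SE 0.14).

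The promoter windows of Hadha and Hadhb are shown because the subunit genes share this stretch. Ratios of other gene pairs were not computed, so the steadiness of this ratio cannot be called particular to the pair. The part of the shared stretch in it was not tested. In GRCr8 the RefSeq windows (chr6:31907551-31907850, plus strand, and chr6:31907451-31907750, minus strand) overlap by 200 bases. Capitals mark these shared bases, each the reverse complement of the other, and 3.59% of all windows overlap the window of a gene that points away on the opposite strand.
Hadha promoter: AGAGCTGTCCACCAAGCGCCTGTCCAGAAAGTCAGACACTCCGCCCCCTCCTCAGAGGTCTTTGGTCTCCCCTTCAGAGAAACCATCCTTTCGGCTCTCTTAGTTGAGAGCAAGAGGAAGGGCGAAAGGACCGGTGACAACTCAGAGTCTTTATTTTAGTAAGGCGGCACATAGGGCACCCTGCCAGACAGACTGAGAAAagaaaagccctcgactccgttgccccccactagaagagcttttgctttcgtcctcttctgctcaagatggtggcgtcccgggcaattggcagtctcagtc
Hadhb promoter: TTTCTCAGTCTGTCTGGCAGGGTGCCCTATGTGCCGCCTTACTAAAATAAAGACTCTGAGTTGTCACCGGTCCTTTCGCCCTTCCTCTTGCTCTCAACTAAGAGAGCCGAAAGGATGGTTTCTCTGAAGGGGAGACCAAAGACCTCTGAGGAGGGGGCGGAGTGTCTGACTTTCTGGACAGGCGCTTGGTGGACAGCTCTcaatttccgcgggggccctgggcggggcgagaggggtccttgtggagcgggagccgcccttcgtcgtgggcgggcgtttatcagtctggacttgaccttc

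The 3 tested auxiliary enzymes, which prepare unsaturated acids for the cycle, had lower means in CF. Eci1 (chr10:13797561-13810913), a mitochondrial enoyl-CoA isomerase, was at 14.9, 15.2, 12.7 and 11.7 CPM in CF libraries and 20.7, 9.88, 14.2 and 30.9 CPM in WT. WT libraries 0 and 3 lay above all CF libraries and WT library 1 below them (log2 fold change −0.47, SE 0.30, and −0.13 without WT library 3). Eci2 (chr17:30556883-30661690), a second isomerase found in mitochondria and peroxisomes, was at 118, 142, 128 and 118 CPM in CF libraries and 124, 128, 142 and 195 CPM in WT. WT library 3 was the only library outside the range of 118 to 142 CPM, and the log2 fold change was −0.22 (SE 0.15). Decr1, the mitochondrial 2,4-dienoyl-CoA reductase, was at 29.4 ± 6.67 CPM in CF libraries and 40.6 ± 19.5 CPM in WT libraries (log2 fold change −0.46, SE 0.34).

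Of the 3 genes of electron transfer, Etfdh and Etfb had lower means in CF and Etfa a higher one. Etfa (chr8:60028788-60086403), the alpha subunit of the flavoprotein, had the highest FPKM of the 28 genes over the 8 libraries, although not in WT alone, and was at 154, 213, 168 and 187 CPM in CF libraries and 175, 163, 151 and 194 CPM in WT. The ranges overlapped over most of their width (log2 fold change 0.08, SE 0.13). Etfdh (chr2:178367548-178389608), which passes the electrons to ubiquinone, was at 79.4, 104, 77.8 and 63.2 CPM in CF libraries and 117, 80.5, 89.7 and 135 CPM in WT. CF libraries 0, 2 and 3 lay below every WT library and CF library 1 within the WT range, with a log2 fold change at −0.38 (SE of 0.19, adjusted p = 0.378, edgeR). Etfb, the beta subunit, had a log2 fold change of −0.13 (SE 0.17).

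Of the peroxisomal genes Hsd17b4, Crot and Ehhadh were tested and had lower means in CF. Hsd17b4 (chr18:44810387-44897640), the D-bifunctional protein, was at 88.9, 143, 105 and 98.5 CPM in CF libraries and 150, 112, 121 and 208 CPM in WT. CF libraries 0, 2 and 3 lay below every WT library and CF library 1 between WT libraries 2 and 0 (log2 fold change −0.44, SE 0.21, adjusted p = 0.351, edgeR). Crot, which makes medium-chain carnitine esters for export to mitochondria, was at 17.2 ± 1.71 CPM in CF libraries and 21.3 ± 4.16 CPM in WT libraries (log2 fold change −0.31, SE 0.15). Ehhadh, the L-bifunctional protein, was at 19.1 CPM in CF library 0 and 77.3 CPM in CF library 1, with WT libraries between 35.6 and 66.1 CPM. Its log2 fold change was −0.11 (SE 0.39), or 0.14 without CF library 0, the library low in enterocyte markers.

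The genes of ketone body metabolism were among the least variable of the 28. Acat1 (chr8:58166989-58195884), the mitochondrial acetoacetyl-CoA thiolase, was at 147, 156, 137 and 127 CPM in CF libraries and 168, 141, 150 and 187 CPM in WT. WT libraries 0 and 3 lay above the CF range and WT libraries 1 and 2 within it (log2 fold change −0.19, SE 0.12, adjusted p = 0.471, edgeR). Bdh1, which interconverts acetoacetate and 3-hydroxybutyrate, ranged from 95.6 to 107 CPM in CF libraries, and from 86.5 to 121 CPM in WT. Its log2 fold change was −0.02 (SE 0.12, 95% interval −0.28 to 0.24). Acot1 (chr6:107422153-107557688), the cytosolic acyl-CoA thioesterase, had 20, 2, 1 and 13 fragments in CF libraries and 29, 2, 5 and 9 fragments in WT libraries. Libraries 0 and 3 held most of them in both groups. Its locus spans a cluster of near-identical paralogs whose fragments could be shared, and its log2 fold change of −0.52 had an SE of 0.93.

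**Figure D5:**
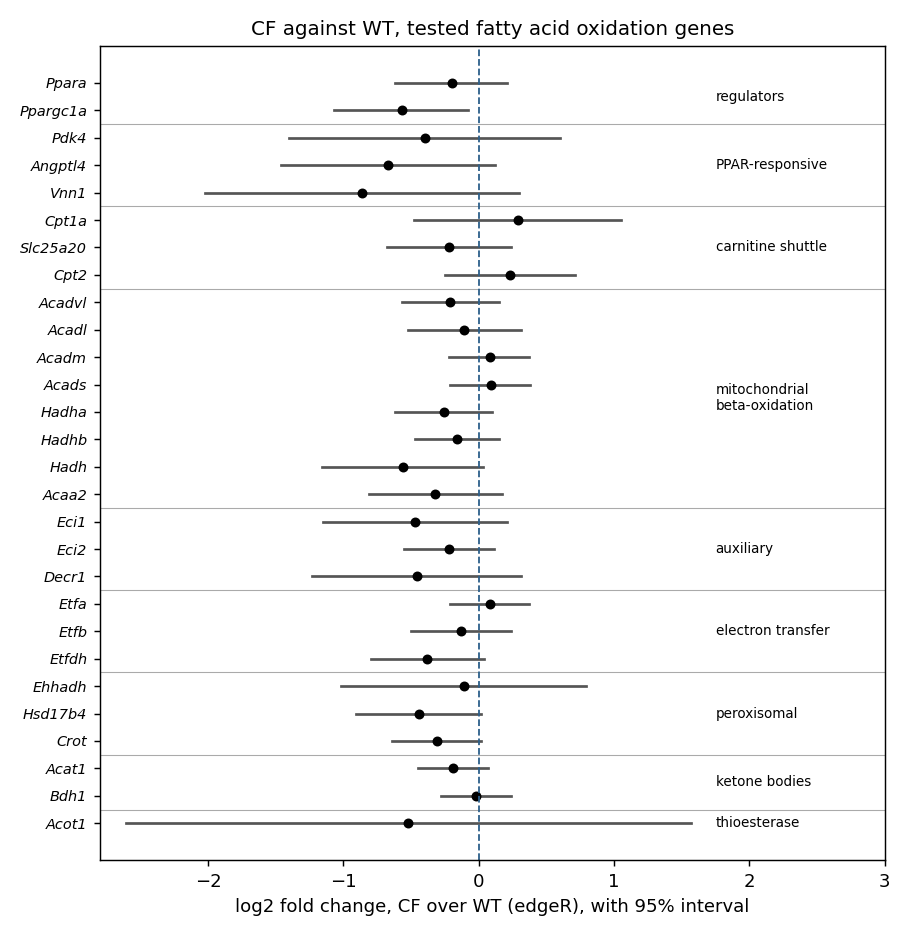
Log2 fold change, CF over WT, of each tested gene (points) with its 95% interval from edgeR's quasi-likelihood test (bars), in rows by role. Intervals of 27 of 28 genes hold 0, the exception being Ppargc1a at −0.57, and the widest is that of Acot1.

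Precision differed between the genes. The SE of the log2 fold change was 0.12 to 0.93 with a median of 0.20, and for 18 of 28 genes the 95% interval lay within a doubling or halving (−1 to 1 on the log2 scale). Those of Cpt1a, Hadh, Eci1, Ehhadh, Decr1, Ppargc1a, Pdk4, Acot1, Angptl4 and Vnn1 reached beyond that range.

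Of 69 other genes of fatty acid and ketone handling, 59 were tested and none passed the adjusted threshold, with 19 higher and 40 lower means in CF and a median log2 fold change of −0.12. At an unadjusted p of 0.05, 4 were higher and 4 lower, where 7.94% and 7.21% of all loci were. In 2 genes all CF libraries lay above all WT libraries, as in 4.86% of all loci, and in 1 gene all lay below, as in 3.91%. Slc16a6, a transporter of the monocarboxylate family that carries ketone bodies in zebrafish liver, was at 47.7, 44.2, 34.4 and 50.1 CPM in CF libraries and 26.6, 32.6, 29.5 and 30.6 CPM in WT. Its log2 fold change was 0.56 (SE 0.13, adjusted p = 0.101, edgeR). Pdk3, a pyruvate dehydrogenase kinase like Pdk4, was at 37.0, 44.5, 36.1 and 45.0 CPM in CF libraries and 31.8, 31.8, 30.9 and 33.4 CPM in WT libraries (log2 fold change 0.35, SE 0.10). Hacl1, which cleaves 2-hydroxy acyl-CoA in peroxisomes, was at 17.1, 19.5, 19.2 and 18.3 CPM in CF libraries and 27.5, 22.0, 20.7 and 32.0 CPM in WT libraries (log2 fold change −0.46, SE 0.15, adjusted p = 0.193, edgeR). The most abundant of these genes per length were the uncoupling protein gene Ucp2, at 867 ± 180 CPM in CF libraries and 841 ± 81.5 CPM in WT, and the acyl-CoA synthetase gene Acsl5, with log2 fold changes of 0.04 (SE 0.16) and 0.02 (SE 0.25).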

How the data were processed

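Stranded mRNA libraries of small intestine, 4 CF and 4 WT, were compared. The submitters' processing notes name STAR 2.3.1z with cutadapt and bcl2fastq, StringTie, Cuffdiff and the build Rnor_6.0, and settings not given in the sources used here are left out. Per the file headers the authors deposited estimated counts as raw fragments of each locus, which were rounded since 5.99% were not whole numbers (tolerance 1e-06). The FPKM values were made by the authors with Cuffdiff per transcript length, per the file headers, and served for levels between genes and for 2 alternatives. There were 2 more columns with library values, which no step read.

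Loci were kept by edgeR's filterByExpr (minimum count 10, minimum total 15), scaled by TMM and compared, CF over WT, by the quasi-likelihood test in its robust form, with p-values adjusted by Benjamini-Hochberg over 16941 loci. CPM are TMM-scaled, list scores used a prior count of 2, the SE is the log2 fold change over the square root of F, and 95% intervals use the test's t quantile. The test was tried on simulated counts before use. The table numbers libraries 0 to 3 and the titles 1 to 4, so the group of each library is known but not its title. Locus spans can include neighbouring genes, and the locus of Etfb, Etfdh and Ppara was the larger of 2. Promoter windows came from RefSeq (GRCr8) by symbol.

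The genes, role groups and lists were chosen with earlier results of these data known. Values per library are given for genes past the test or with groups that do not overlap, and in each role group for the gene with the highest mean FPKM over the 8 libraries and the one with the largest fold change. Hadhb, Cpt2 and a few further values were added after they were seen, as were Aacs and Acsl4. Muc2, Sis, Actg2, Tagln and Pecam1 of the marker lists were not matched to a locus of that name alone. Alternatives changed scaling, filter, test, unit, the replicate block and the libraries used. Tests ran in edgeR 4.0.16, DESeq2 1.42.0 and limma 3.58.1 under R 4.3.3, and figures in matplotlib 3.10.9 with pandas 2.3.3 under Python 3.11.15.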

Additional observations from a re-analysis of the deposited data

Results flagged for a closer look

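Among 70 groups of 4 library values, 1 held a library far from the other 3. Acsl5, an acyl-CoA synthetase gene outside the 33, was at 840 CPM in CF library 0, against 1300 to 1360 CPM in CF libraries 1, 2 and 3, a gap of 0.891 of the range, which is beyond Dixon's critical value for 4 values at 95%. Chance gives such a library in about 1 of 20 groups. CF library 0 also had the lowest sum of enterocyte markers, and their part in this value was not tested.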

How the results depend on the processing

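None of the 28 tested genes passed an adjusted p of 0.05 with another scaling, filter, test or unit, with 1 library left out or without WT libraries 0 and 3. With 1 library left out their median log2 fold change was −0.33 to −0.12. It was 0.08 without WT libraries 0 and 3, a pair chosen because it was high. Of all loci 28 were called, against 553 with no low-count filter, 619 with DESeq2, 17 with limma-voom, 12 on log2(FPKM + 1), 15 on log2(FPKM + 0.1), 16 without WT libraries 0 and 3, and 5 (without WT library 1 or 2) to 136 (without CF library 0) with 1 library left out. Of the other pathway genes 3 were called with no filter (Slc16a6, Aacs and Acsl4), 1 with DESeq2 (Slc16a6), and 0 to 1 with 1 library left out, namely Aacs without CF library 0 and Slc16a6 without CF library 2. The cause was not tested.

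With the table's library number as a replicate block 11 loci were called and none of the 28 genes. Same-numbered libraries of the groups did not deviate together, with correlations across loci of 0.065, −0.106, 0.163 and −0.008, so the numbers pair nothing here.

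The sign of some log2 fold changes turned. Bdh1 was at 0.02 with no filter and Ucp2 at −0.03 on both FPKM scales. With 1 library left out the log2 fold change was −0.54 to 0.14 for Ehhadh, −0.02 to 0.20 for Acads, −0.01 to 0.15 for Etfa, −0.14 to 0.28 for Acsl5, −0.10 to 0.15 for Ucp2, −0.09 to 0.08 for Bdh1, −1.21 to 0.60 for Acot1, −0.34 to 0.00 for Slc25a20, −0.21 to 0.07 for Acadl and −0.25 to 0.02 for Etfb. Without WT libraries 0 and 3 it was 0.21 for Slc25a20, 0.27 for Acadl, 0.05 for Acadvl, 0.03 for Hadha, 0.09 for Hadhb, 0.18 for Eci1, 0.26 for Ehhadh, 0.30 for Decr1, 0.14 for Acaa2, 0.17 for Bdh1, 0.04 for Etfb, 0.07 for Ppara, 0.08 for Pdk4 and 1.40 for Acot1.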
